A study of Homo sapiens with 12 samples.

Results

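The 10 genes described here, which mark or control the epithelial-to-mesenchymal transition, were followed across 2 human pancreatic cancer cell lines: the cadherins CDH1, CDH2 and CDH3, the adhesion molecule EPCAM, the filament protein VIM, and the transcription factors ZEB1, ZEB2, SNAI1, SNAI2 and TWIST1. They were chosen by symbol as 10 of the 39099 genes obtained by summing the deposited transcript values, and all 10 were found. The 12 libraries came from the established lines AsPC-1 and PANC-1 (labelled ASPC1 and PANC1), each as mock control cells, cells overexpressing TAp63 and cells overexpressing deltaNp63, with 2 libraries in each of the 6 groups. TAp63 and deltaNp63 are the long and short amino-terminal forms of the transcription factor p63, a regulator of squamous and basal epithelium. The labels call the 2 libraries of a group biological replicates. Whether these came from separate cultures, and the vector, time of harvest and number of clones, are not given in the sources used here, so p-values measure the spread between these libraries.

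The epithelial-to-mesenchymal transition is a programme in which epithelial cells loosen their junctions and gain a migratory, fibroblast-like state. CDH1 (E-cadherin) holds neighbouring epithelial cells together, CDH2 (N-cadherin) is typical of neural and mesenchymal cells, and CDH3 (P-cadherin) of basal epithelium. The zinc finger proteins of the SNAI and ZEB families bind E-box motifs and repress epithelial genes, CDH1 among them. SNAI2 is also known in keratinocytes and mammary basal cells, where p63 acts as well.

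Values were TPM, transcript shares of a library that are scaled for transcript length, so levels can be compared between genes. Read depth is unknown, and the replicate spread alone sets the precision. Genes at 1 TPM or more numbered from 12212 to 13161 per library. Replicates differed most in AsPC-1 deltaNp63, by a median of 0.211 log2 units over genes, against 0.092 to 0.148 in the other 5 groups. TP63, the overexpressed gene, was at most 1.1 TPM in the 4 mock libraries, at 102 to 350.4 TPM in AsPC-1 with a construct and at 324 to 1187 TPM in PANC-1 with a construct. All 5 markers of ductal carcinoma epithelium (KRT7, KRT8, KRT18, KRT19 and MUC1) reached 1 TPM in both lines, with sums from 5646 to 9194 TPM in AsPC-1 and from 3459.5 to 3829 TPM in PANC-1. Among leukocyte markers, PTPRC and CD3E stayed under 0.1 TPM in every library, CD14 stayed under 1 TPM, and ITGAM ranged from 0.0216 to 0.915 TPM in AsPC-1 and from 0.468 to 1.29 TPM in PANC-1. Of 8 fibroblast markers, only LUM reached 1 TPM in AsPC-1, at 177 to 288 TPM. In PANC-1 only COL1A1, at 80.8 to 111 TPM, and THY1, at 22.7 to 25.9 TPM, did. The 8 markers summed to 178 to 289 TPM in AsPC-1 and 105 to 137 TPM in PANC-1.

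Promoter sequences are shown for ZEB1, whose windows held the motif described next, and for CDH2, whose transcripts start at 2 sites that carried RNA in PANC-1. They are the RefSeq windows (GRCh38.p14) before annotated starts, 5′ to 3′ on the gene's strand, with matches to CAGGTG on either strand in capitals (the reverse strand reads CACCTG). This E-box is the one that SNAI and ZEB proteins are known to bind. Of 35116 such windows of 250 bases, 17.5% held it. The windows of 4 members, VIM, ZEB1, ZEB2 and CDH2, were searched, and 2 of their 11 windows, both of ZEB1, held it. SNAI2 was left out of this search. The ZEB1 stretch, chr10:31318966-31319124 on the plus strand, ends where its most abundant transcript ZEB1-201 begins. The CDH2 windows lie on the minus strand, at chr18:28177131-28177380 before the start of CDH2-201 and at chr18:28036642-28036891 near the start of CDH2-202.
ZEB1 before ZEB1-201: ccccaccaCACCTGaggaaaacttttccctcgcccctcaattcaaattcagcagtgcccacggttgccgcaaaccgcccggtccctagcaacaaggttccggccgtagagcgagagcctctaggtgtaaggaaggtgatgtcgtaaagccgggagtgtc
CDH2 before CDH2-201: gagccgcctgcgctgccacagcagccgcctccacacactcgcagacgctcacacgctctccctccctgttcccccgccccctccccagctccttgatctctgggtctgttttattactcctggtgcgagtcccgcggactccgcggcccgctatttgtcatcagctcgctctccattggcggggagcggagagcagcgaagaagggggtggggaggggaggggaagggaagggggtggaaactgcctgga
CDH2 near CDH2-202: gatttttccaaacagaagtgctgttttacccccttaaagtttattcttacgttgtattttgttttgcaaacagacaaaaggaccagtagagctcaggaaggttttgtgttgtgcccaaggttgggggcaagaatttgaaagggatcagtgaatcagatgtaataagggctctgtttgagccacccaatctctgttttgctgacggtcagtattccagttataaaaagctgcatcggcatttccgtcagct
Neither CDH2 window held the motif. The whole 250-base ZEB1 window held 2 matches, at positions -242 and -85 from the annotated start of ZEB1-202.

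The 2 lines differed in the cadherin they carried. CDH1 was high in AsPC-1 and low in PANC-1, CDH2 was close to 0 in AsPC-1 and clearly present in PANC-1, and no construct moved either gene from one pattern to the other. In this comparison 72.5% of the 14767 tested genes had a limma adjusted p under 0.05 between mock PANC-1 and mock AsPC-1 (44.6% higher in PANC-1 and 27.9% lower), so a called difference between the lines was common. The median of all tested genes was 0.243 log2 units higher in PANC-1 mock, and 0.0692 after median centring. Genes were tested if they had at least 1 TPM in at least 2 libraries. CDH1, EPCAM, VIM and ZEB1 met this in both lines. CDH2, SNAI1 and ZEB2 met it through PANC-1 alone and CDH3 and SNAI2 through AsPC-1 alone, so a difference between the lines was built into their selection. TWIST1 did not meet it. In bulk RNA, fewer cells making a transcript and less of it per cell cannot be told apart.

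CDH1 (ENSG00000039068, chromosome 16, 68737292 to 68835537, plus strand, hg38) was at 81.8 and 101 TPM in AsPC-1 mock, 116 and 119.8 TPM with TAp63, and 123 and 104 TPM with deltaNp63. In PANC-1 it was at 3.51 and 2.42 TPM in mock, 3.74 and 3.69 TPM with TAp63, and 2.37 and 2.61 TPM with deltaNp63. The lowest AsPC-1 library thus lay above every PANC-1 library, and the mock means of 91.6 ± 13.9 and 2.96 ± 0.772 TPM (SD, n = 2) stood 30.9-fold apart. On the log2(TPM + 1) scale the mock difference was -4.55 (SE 0.152, limma adjusted p 2.01e-09). The full-length transcript CDH1-201 held 71.1% of CDH1 in AsPC-1 mock and 70% in PANC-1 mock. CDH1-205, a transcript with no defined coding sequence, held 24.4% in AsPC-1 mock. In PANC-1 its values were under 1 TPM, and in mock it was listed at 0 in 1 library and at 0.513 TPM in the other, so no share is given there.

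CDH2 (ENSG00000170558, chromosome 18, 27932879 to 28177946, minus strand) was between 0 and 0.0219 TPM in the 6 AsPC-1 libraries. In PANC-1 it was at 22.3 and 20.6 TPM in mock, 21.2 and 19.5 TPM with TAp63, and 19.6 and 22.1 TPM with deltaNp63. The PANC-1 groups overlapped one another, and the mock difference between the lines was 4.47 log2 units (SE 0.114, limma adjusted p 3.11e-10). CDH2 passed the filter through PANC-1 alone, so a difference was built in. In PANC-1 mock, 67.2% of CDH2 fell on CDH2-201 and 32.8% on CDH2-202, whose start lies inside the gene at the second promoter shown above. The CDH2-201 shares were 74.6% with TAp63 and 67.8% with deltaNp63. These shares rest on how reads were divided between transcripts, which is not given in the sources used here.

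CDH3 (ENSG00000062038, chromosome 16, 68636189 to 68727468, plus strand) is the upstream neighbour of CDH1. CDH3 stood at 9.8 and 9.29 TPM in AsPC-1 mock, 10.1 and 10.3 TPM with TAp63, and 11.1 and 8.71 TPM with deltaNp63, and between 0.3 and 0.805 TPM in the 6 PANC-1 libraries. It was lower in PANC-1 mock by a log2 difference of -2.91 (SE 0.143, limma adjusted p 3.73e-08), and it passed the filter through AsPC-1 alone, so a difference was built in. In AsPC-1 mock, 56% of CDH3 was on the coding transcript CDH3-201 and 30.7% on CDH3-203, annotated as a target of nonsense-mediated decay.

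EPCAM (ENSG00000119888, chromosome 2, 47345158 to 47387601, plus strand), a cell adhesion molecule of simple epithelia, ranged from 1256 to 1409.7 TPM in AsPC-1 and from 42.6 to 49.5 TPM in PANC-1. The mock means were 1314 ± 82 and 47.3 ± 3.08 TPM (SD, n = 2), a 27.8-fold gap and a log2 difference of -4.77 (SE 0.0893, limma adjusted p 5.73e-11). EPCAM nevertheless remained the second highest of the 10 genes in PANC-1. Its retained-intron transcript EPCAM-206 held 35.4% of the gene in AsPC-1 mock and 34.4% in PANC-1 mock, so its share was much the same at levels that far apart.

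VIM (ENSG00000026025, chromosome 10, 17228241 to 17237593, plus strand), which encodes the intermediate filament vimentin, was the highest of the 10 genes in both lines. Its values were 2076 and 2361 TPM in AsPC-1 mock, 2065 and 2254 TPM with TAp63, and 2000.5 and 2002 TPM with deltaNp63. In PANC-1 it was at 4439 and 4695 TPM in mock, 4943 and 4704 TPM with TAp63, and 4291 and 4867 TPM with deltaNp63. AsPC-1, with its CDH1 and EPCAM, therefore also carried abundant vimentin RNA, and PANC-1 mock exceeded it 2.06-fold (log2 difference 1.04, SE 0.0838, limma adjusted p 1.58e-06). The antisense gene VIM-AS1 differed the other way, at 6.21 and 7.26 TPM in AsPC-1 mock and 1.49 and 0.886 TPM in PANC-1 mock (log2 difference -1.83, limma adjusted p 2.43e-06), a gene named after its values were seen.

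**Figure D1:**
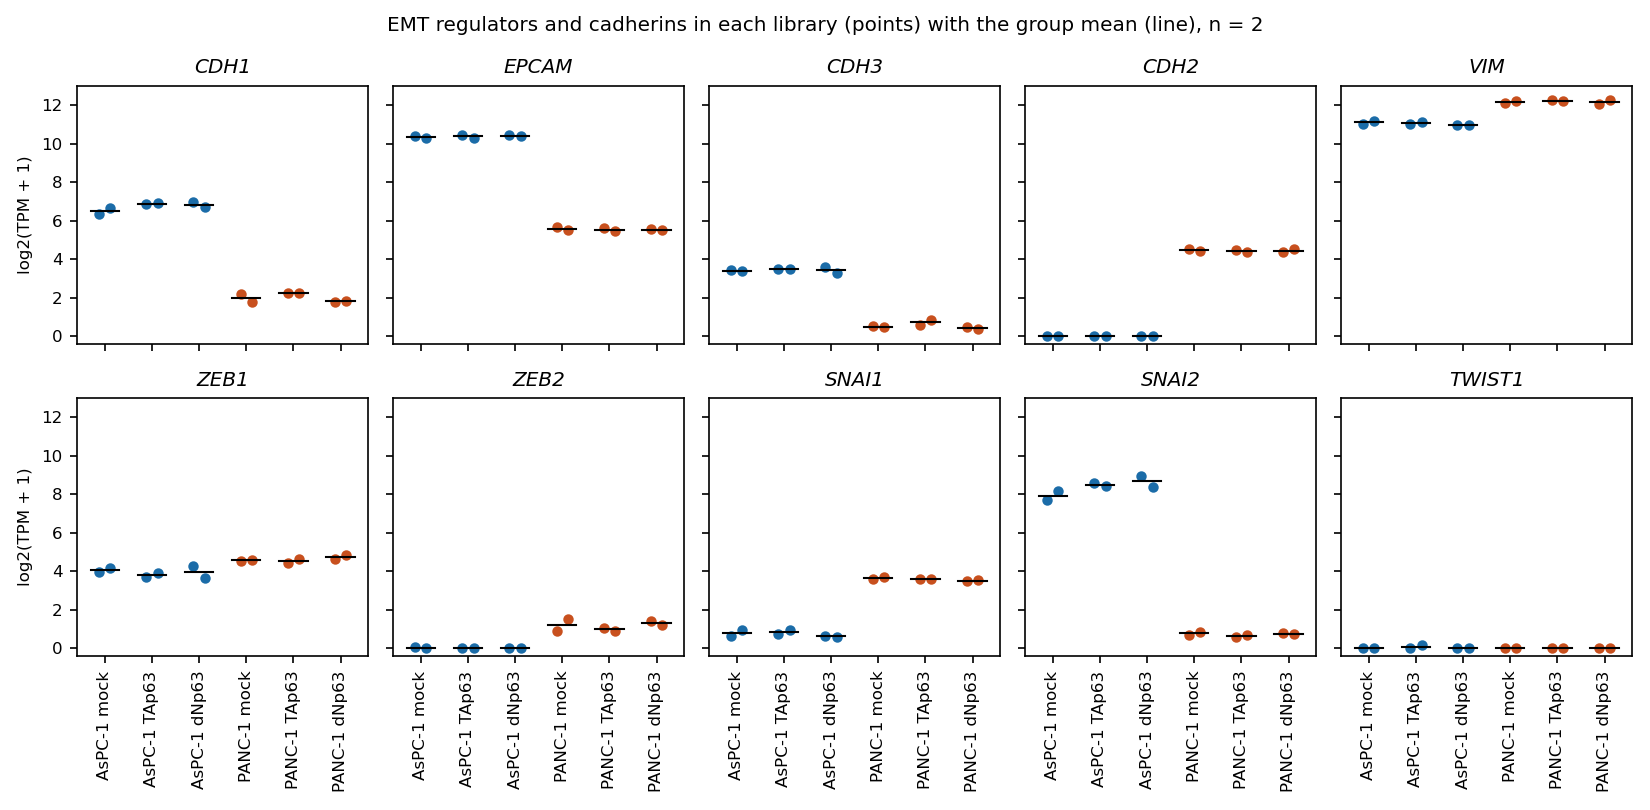
Level of each of the 10 genes as log2(TPM + 1) in every library (points, blue for AsPC-1 and orange for PANC-1) with the group mean of 2 libraries as a line; dNp63 stands for deltaNp63. CDH1, EPCAM, CDH3 and SNAI2 sit higher in all 6 AsPC-1 libraries, CDH2, VIM, ZEB1, ZEB2 and SNAI1 in all 6 PANC-1 libraries, and TWIST1 stays at or near 0.

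The SNAI factors divided between the lines. SNAI2 (ENSG00000019549, chromosome 8, 48917598 to 48921740, minus strand), the repressor also called Slug, was at 206 and 283 TPM in AsPC-1 mock and 0.617 and 0.82 TPM in PANC-1 mock. Its mock difference of -7.14 (SE 0.194, limma adjusted p 4.74e-10) was the largest in size among the 9 tested members. SNAI1 (ENSG00000124216, chromosome 20, 49982980 to 49988886, plus strand), the repressor also called Snail, ran the other way. It ranged from 0.498 to 0.913 TPM over the 6 AsPC-1 libraries and from 10.2 to 11.9 TPM over the 6 PANC-1 libraries, a mock difference of 2.88 (SE 0.133, limma adjusted p 2.42e-08). The line with the higher CDH1 was thus the line with the higher SNAI2. Since SNAI2 passed the filter through AsPC-1 alone and SNAI1 through PANC-1 alone, these p-values and the rank are not read as support.

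ZEB1 (ENSG00000148516, chromosome 10, 31318495 to 31529814, plus strand) differed least between the lines. ZEB1 stood at 14.5 and 16.8 TPM in AsPC-1 mock, 12.1 and 13.8 TPM with TAp63, and 18.1 and 11.8 TPM with deltaNp63. In PANC-1 it was at 22.3 and 22.9 TPM in mock, 20.5 and 23.5 TPM with TAp63, and 23.7 and 27.5 TPM with deltaNp63. The mock difference of 0.51 (SE 0.177, limma adjusted p 0.0258) passed the threshold, but not under quantile normalization (0.36, adjusted p 0.096), after median centring (0.33, adjusted p 0.145) or without a low-value filter (adjusted p 0.113). It also failed without AsPC-1 mock replicate 1 (0.41, adjusted p 0.137), PANC-1 mock replicate 1 (0.52, adjusted p 0.077) or PANC-1 mock replicate 2 (0.49, adjusted p 0.095). Over the mean of the 3 treatments, a comparison added after the data were seen, the difference was 0.67 (SE 0.102, limma adjusted p 0.000125).

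The coding transcripts ZEB1-201, ZEB1-202 and ZEB1-207 held 29.5%, 25.8% and 20.9% of ZEB1 in AsPC-1 mock and 38.3%, 25.7% and 26.4% in PANC-1 mock. ZEB1-AS1, an antisense gene with annotated exons inside the ZEB1 promoter stretch shown above, was at 15.5 and 18.6 TPM in AsPC-1 mock and 5.41 and 5.4 TPM in PANC-1 mock (log2 difference -1.49, limma adjusted p 1.18e-05). It was named after its values were seen. The sense gene was therefore higher and the antisense gene lower in PANC-1. Whether strand was used in assigning reads is not given in the sources used here, so reads of the 2 overlapping genes may not be fully separated.

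ZEB2 (ENSG00000169554, chromosome 2, 144364364 to 144521057, minus strand) was at most 0.0366 TPM in AsPC-1 and ranged from 0.828 to 1.9 TPM in PANC-1, with 4 of 6 PANC-1 libraries at or above 1 TPM. The mock difference was 1.17 (SE 0.201, limma adjusted p 0.000431), in a gene that passed the filter through PANC-1 alone, so a difference was built in. TWIST1 (ENSG00000122691, chromosome 7, 19020991 to 19117636, minus strand), a basic helix-loop-helix factor, was listed at 0 in every PANC-1 library and in 4 of 6 AsPC-1 libraries, with 0.117 TPM as its highest value. TWIST1 was not tested.

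Within AsPC-1 the order of mean levels was VIM, EPCAM, SNAI2, CDH1, ZEB1, CDH3 and SNAI1, and neighbours in that order did not overlap over the 6 libraries. TWIST1, ZEB2 and CDH2 followed near 0 and could not be ordered. Within PANC-1 the order was VIM, EPCAM, ZEB1, CDH2, SNAI1, CDH1, ZEB2, SNAI2, CDH3 and TWIST1. There ZEB1 (20.5 to 27.5 TPM) overlapped CDH2 (19.5 to 22.3 TPM), and SNAI2 (0.497 to 0.82 TPM) overlapped CDH3. Among the genes closest to CDH1 in their centred log2 profile over the 12 libraries were LMO7 and SEMA3B, with root mean square differences of 0.171 and 0.18 log2 units, and EPCAM was at 0.216. The genes closest to ZEB1 were ZNF222, ZNF292 and TRIM23, at 0.108, 0.116 and 0.119. These profiles mainly share the size of the gap between the lines.

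The p63 constructs changed these genes far less than the lines differed. With TAp63 in AsPC-1, 0 of 9 tested members passed over all genes, beside 0.637% of all genes, and 2 had an unadjusted p under 0.05, SNAI2 and CDH1, beside 15.1% of all genes. With deltaNp63 in AsPC-1, 1 of 9 passed, beside 7.14% of all genes (0.637% higher and 6.51% lower). That gene was SNAI2, and no other member had an unadjusted p under 0.05, beside 29.7% of all genes. Counts over 9 genes are too small to be told apart from these shares. The background itself turned on the setting and on single libraries: 94 genes were called higher and 961 lower, against 51 and 148 under quantile normalization and 249 and 170 after median centring. It held 4057 genes without AsPC-1 deltaNp63 replicate 2, 114 without replicate 1 of that group, and 98 and 124 without mock replicates 1 and 2. With TAp63 it held 94 genes, and 42 to 83 without 1 of the 4 libraries compared. In PANC-1, 0 of 9 passed with TAp63, beside 0.00677% of all genes, and 0 of 9 with deltaNp63, beside 0.0406%; at an unadjusted p under 0.05 there were 0 with either construct, beside 3.41% and 2.34% of all genes. Both constructs were set against the same mock libraries.

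SNAI2 was higher in every AsPC-1 library with a construct than in either mock library. It was at 379 and 341 TPM with TAp63 and at 496 and 332 TPM with deltaNp63, against 206 and 283 TPM in mock. SNAI2 so did not overlap mock with either construct. With 2 libraries a group, such a gap is common without any effect. The share of all genes with such a gap was not computed, so it is not read as support. With deltaNp63 the log2 change was 0.75 (SE 0.194, 95% interval 0.31 to 1.18), with a limma adjusted p of 0.0495 that lay just under the threshold. With TAp63 it was 0.57 (SE 0.194, limma adjusted p 0.214). Both SEs pool the spread of all 12 libraries, 6 of them PANC-1 libraries with SNAI2 at 0.497 to 0.82 TPM. There the log2(TPM + 1) scale compresses the spread, so the SEs and intervals may be too narrow for AsPC-1. TAp63 and deltaNp63 differed by -0.17 for SNAI2 (95% interval -0.61 to 0.26, limma adjusted p 0.807). In PANC-1, SNAI2 was at 0.497 and 0.632 TPM with TAp63 and 0.73 and 0.651 TPM with deltaNp63, which overlapped mock.

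The SNAI2 call with deltaNp63 rested on the setting. It was lost when any of 3 libraries was left out: AsPC-1 deltaNp63 replicate 1 (0.46, limma adjusted p 0.264), mock replicate 1 (0.52, adjusted p 0.227) or mock replicate 2 (0.97, adjusted p 0.0768). It was also lost when the fit held AsPC-1 alone (adjusted p 0.257). The other settings that ended it are drawn in the plot of SNAI2 by setting, and its change stayed between 0.46 and 1.03 in all settings run. The median of all tested genes lay at -0.12 in this comparison, and median centring of each library moved it to 0.088 and the SNAI2 change to 0.95.

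**Figure D2:**
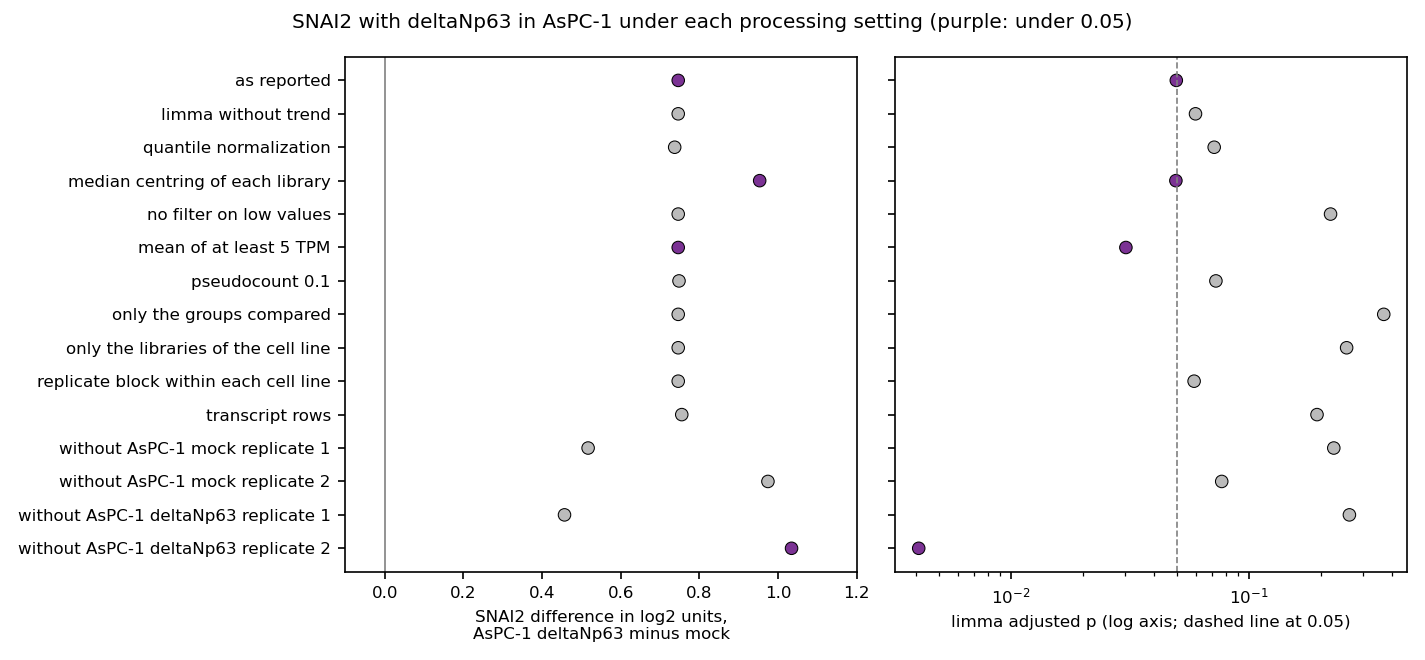
SNAI2 in AsPC-1 with deltaNp63 minus mock under each processing setting: the log2 difference (left) and the limma adjusted p on a log axis (right), purple where adjusted p is under 0.05. The difference stays above 0 in every setting, while adjusted p falls on both sides of 0.05 and runs from 0.0041 to 0.368.

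CDH1 showed a smaller difference in the same libraries. In AsPC-1, all 4 libraries with a construct (104 TPM or more) exceeded both mock libraries, with log2 changes of 0.37 for TAp63 (95% interval 0.028 to 0.71, limma adjusted p 0.295) and 0.31 for deltaNp63 (95% interval -0.033 to 0.65, limma adjusted p 0.209). In PANC-1, TAp63 was above mock by 0.26 (95% interval -0.077 to 0.60, limma adjusted p 1) and deltaNp63 was below it by a log2 change of -0.17 (95% interval -0.51 to 0.17, limma adjusted p 1). None of these passed.

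EPCAM had the narrowest intervals after VIM. Its change with TAp63 was 0.026 in AsPC-1 (95% interval -0.17 to 0.23) and -0.069 in PANC-1 (95% interval -0.27 to 0.13), and with deltaNp63 it was 0.048 and -0.058. For VIM the changes with deltaNp63 were -0.15 in AsPC-1 (95% interval -0.33 to 0.042, limma adjusted p 0.28) and 0.0020 in PANC-1 (95% interval -0.19 to 0.19). CDH2 in PANC-1 changed by -0.074 with TAp63 (95% interval -0.33 to 0.18) and by -0.039 with deltaNp63 (95% interval -0.29 to 0.22). For ZEB1 the estimates ran from -0.26 with TAp63 in AsPC-1 (95% interval -0.65 to 0.14) to 0.17 with deltaNp63 in PANC-1 (95% interval -0.23 to 0.57). A p above the threshold does not show that these genes were unaffected, and the intervals give the sizes that remain possible.

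**Figure D3:**
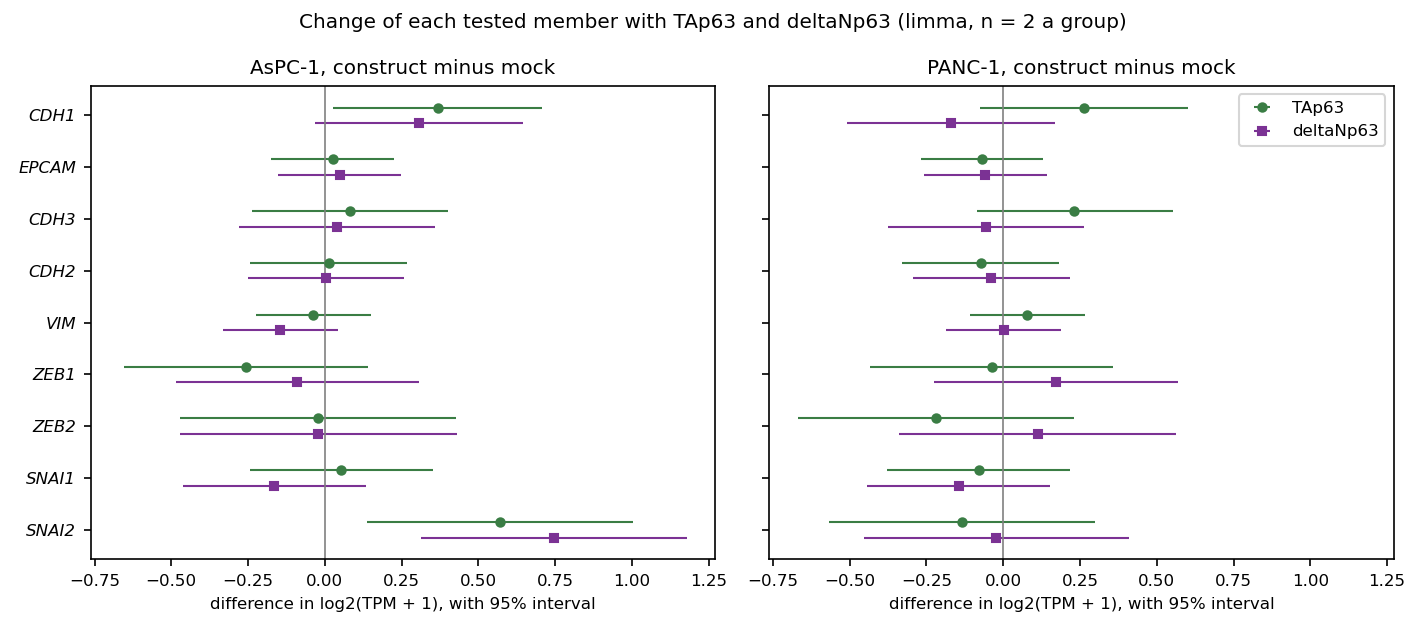
Difference in log2(TPM + 1) between each construct and mock for the 9 tested members, in AsPC-1 (left) and PANC-1 (right), with 95% intervals from limma. Each group has 2 libraries, and the spread of a gene is pooled over both lines. In AsPC-1 the intervals of SNAI2 with both constructs and of CDH1 with TAp63 lie above 0, and in PANC-1 every interval includes 0.

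The 2 forms of p63 were compared directly in each line. The level of TP63 differed along with the form. Its mean over the TAp63 libraries was 136 TPM for AsPC-1 and 333 TPM for PANC-1. For the deltaNp63 libraries the mean was higher, 298 TPM for AsPC-1 and 1001 TPM for PANC-1. Whether a difference between the constructs goes with form or with level was not tested. For TAp63 against deltaNp63, 0 of 9 members passed in AsPC-1, beside 0.0203% of all genes and 0 at an unadjusted p under 0.05 (7.92% of all genes), and 0 of 9 in PANC-1, beside 0.0271%. The AsPC-1 background was 3 genes, and 1025 without AsPC-1 deltaNp63 replicate 2. A lack of overlap between the 2 forms is not read as a result, since its share over all genes was not computed. In PANC-1, CDH1 was at 3.74 and 3.69 TPM with TAp63 and 2.37 and 2.61 TPM with deltaNp63. Its log2 difference of 0.43 (95% interval 0.094 to 0.77) had an unadjusted p of 0.0175, the 1 member under 0.05 (2.96% of all genes), and a limma adjusted p of 1. SNAI1 in AsPC-1 was higher with TAp63 by 0.22 (95% interval -0.079 to 0.52, limma adjusted p 0.665).

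Whether a construct acted differently in the 2 lines was tested as an interaction. No member passed for TAp63, beside 0.0745% of all genes, or for deltaNp63, beside 0.582%, with 1 member, SNAI2, at an unadjusted p under 0.05 in each (10.4% and 16.5% of all genes). The SNAI2 effect in PANC-1 minus that in AsPC-1 was -0.71 for TAp63 (95% interval -1.32 to -0.093, limma adjusted p 0.442) and -0.77 for deltaNp63 (95% interval -1.38 to -0.16, limma adjusted p 0.243). Without AsPC-1 deltaNp63 replicate 2 the latter was -1.06 and passed (limma adjusted p 0.0204). The TAp63 background was 11 genes, 23 without AsPC-1 TAp63 replicate 2, 4 without PANC-1 TAp63 replicate 1 and 1 without any 1 of the other 6 libraries compared. The background of the deltaNp63 comparison was 86 genes, 2196 without that library and 44 to 48 without 1 of the 4 mock libraries or PANC-1 deltaNp63 replicate 2. The PANC-1 level of SNAI2 was under 1 TPM, where the log2(TPM + 1) scale compresses any change.

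A further 4 lists gave the surroundings of these genes, namely cadherins and catenins, other epithelial genes, other mesenchymal genes, and other transcription factors of the transition with their partners. In mock cells, 29 of 36 tested epithelial genes were lower in PANC-1 and 4 were higher, with a median log2 difference of -1.8 beside 0.243 over all genes. Since 7 of these passed the filter through AsPC-1 alone and 1 through PANC-1 alone, their difference was built in. Of the 28 that passed in both lines, 22 were lower and 3 higher (78.6% and 10.7%, beside 27.3% and 42.9% of the 11604 genes that passed in both), with a median of -1.51 beside 0.196. The largest negative differences were in ELF3 (-7.85, limma adjusted p 9.39e-10) and EHF (-7.81, limma adjusted p 2.48e-11), epithelial ETS factors, and in KLF5 (-7.04, limma adjusted p 1.14e-10), a zinc finger factor of gut epithelium. The 3 with the largest positive differences were AP1M2, a sorting adaptor of polarised cells (3.08, limma adjusted p 1.11e-07), the splicing factor ESRP2 (1.06, limma adjusted p 6.82e-05) and the grainyhead factor GRHL1 (0.88, limma adjusted p 0.00137). EHF passed through AsPC-1 alone and AP1M2 through PANC-1 alone. OCLN, the tight junction protein occludin, differed by -0.040 (limma adjusted p 0.815), a value chosen after it was seen.

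Of 25 tested mesenchymal genes, 16 were higher in PANC-1 mock and 2 lower, with a median of 1.85, and 18 of 25 is 72%, near the 72.5% of all genes. Of these 25, 9 passed the filter through PANC-1 alone and 1 through AsPC-1 alone. Of the 15 that passed in both lines, 8 were higher and 1 lower (53.3% and 6.67%, beside 42.9% and 27.3% of all genes that did), with a median of 0.393 beside 0.196. The collagen gene COL1A1 (6.09, limma adjusted p 1.16e-10), the gelatinase MMP2 (5.76, limma adjusted p 3.38e-11) and THY1, a surface protein of fibroblasts (4.71, limma adjusted p 1.25e-10), were higher by the most, and all 3 passed through PANC-1 alone. The 2 that were lower were the matrix protein TNC, at 35.6 and 40.1 TPM in AsPC-1 mock and 0.494 and 0.61 TPM in PANC-1 mock, and the calcium-binding protein S100A4, at 4495 and 4187 TPM against 409 and 362 TPM. The log2 difference was -4.65 for TNC (limma adjusted p 9.9e-10) and -3.49 for S100A4 (limma adjusted p 3.25e-09). TNC passed through AsPC-1 alone. In AsPC-1 mock, some genes counted with the mesenchymal programme thus exceeded CDH1, such as S100A4, VIM and SNAI2. Others lay below CDH1, such as CDH2, ZEB1, ZEB2, SNAI1, COL1A1, MMP2 and THY1.

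**Figure D4:**
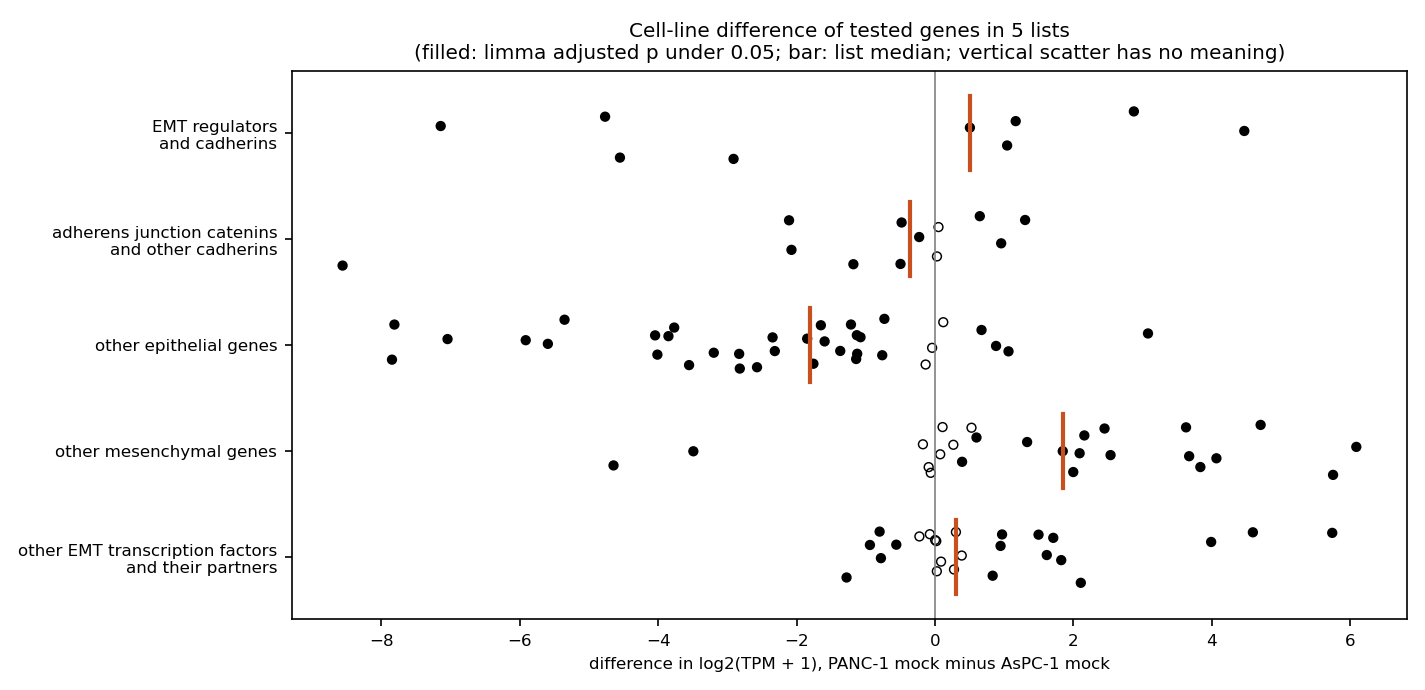
Difference in log2(TPM + 1), PANC-1 mock minus AsPC-1 mock, for each tested gene of the 10-gene set and of 4 related lists (filled where limma adjusted p is under 0.05, bar at the list median). Epithelial genes lie mostly to the left with a median of -1.8 and mesenchymal genes mostly to the right with a median of 1.85, and each list has called genes on the opposite side; genes that passed the filter through 1 line alone are included, and without them the medians are -1.51 and 0.393.

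Among cadherins and their partners, 3 of 12 tested genes were higher in PANC-1 mock and 7 lower, 83.3% in all beside 72.5% of all genes. Of the 10 that passed the filter in both lines, 1 was higher and 7 lower (10% and 70%). Over all genes that did, these shares were 42.9% and 27.3%. CDH17, the liver-intestine cadherin, was at 749 and 746 TPM in AsPC-1 mock and 1.07 and 0.898 TPM in PANC-1 mock, a log2 difference of -8.56 (limma adjusted p 3.17e-11), and so stood above CDH1 in AsPC-1. NECTIN1 (-2.11, limma adjusted p 1.71e-06) and the junction protein plakoglobin, JUP (-2.07, limma adjusted p 2.88e-08), were also lower. CDH11, a mesenchymal cadherin (1.30, limma adjusted p 8.11e-06), NECTIN3 (0.96, limma adjusted p 8.68e-05) and VCL, vinculin (0.65, limma adjusted p 0.000122), were higher, the first 2 having passed through PANC-1 alone.

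Of 25 tested transcription factors and partners, 11 were higher in PANC-1 mock and 5 lower, 64% in all beside 72.5% of all genes, with a median of 0.304. Of the 23 that passed the filter in both lines, 9 were higher and 5 lower (39.1% and 21.7%). Over all genes that did, these shares were 42.9% and 27.3%. The median was 0.276 beside 0.196, so this list lay near the background. The largest positive differences were in LOXL2, a lysyl oxidase that acts with SNAI1 and passed through PANC-1 alone (5.74, limma adjusted p 6.21e-11), in ID3, an inhibitor of helix-loop-helix factors (4.6, limma adjusted p 1.31e-09), and in WWTR1, the YAP partner TAZ (3.99, limma adjusted p 1.85e-10). The ubiquitin ligase subunit FBXW7 (-1.28, limma adjusted p 1.91e-05), ID2 (-0.94, limma adjusted p 0.000851) and ID1 (-0.80, limma adjusted p 0.00349) were lower. Median centring of each library moved the list median to 0.131 and the median of all genes to 0.0692.

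With TAp63, 0 genes of these 4 lists passed in either line, and with deltaNp63 0 passed in PANC-1. At an unadjusted p under 0.05, the 98 tested genes of these lists held 14 with TAp63 in AsPC-1 (14.3%, beside 15.1% of all genes). In PANC-1 they held 5 with TAp63 (5.1%, beside 3.41%) and 4 with deltaNp63 (4.08%, beside 2.34%). With deltaNp63 in AsPC-1, 7 of 98 passed, which is 7.14% and equal to the share over all genes, and 29.6% had an unadjusted p under 0.05, beside 29.7%. In their number of calls these lists thus did not stand apart from the background. The latter share held 11 epithelial genes and 11 factors or partners, all lower, in a comparison whose calls over all genes were mostly lower. In the mesenchymal list 2 rose and 1 fell: DKK1, a secreted WNT inhibitor (0.79, limma adjusted p 0.0137), CCN2, a connective tissue growth factor (0.55, limma adjusted p 0.0398), and TGFBI, a matrix protein (-0.31, limma adjusted p 0.0487). In the epithelial list the serine protease PRSS8 fell by 0.80 on the log2 scale (limma adjusted p 0.0222), 1 of 36. Of 25 factors and partners, 3 fell: the demethylase KDM1A (-0.83, limma adjusted p 0.0481) and the Hippo pathway coactivators WWTR1 (-0.55, limma adjusted p 0.0169) and YAP1 (-0.32, limma adjusted p 0.0422). Counts in this comparison turned on each of the 4 libraries, as did the count over all genes. Leaving out 1 library leaves its group with 1, so list counts from such fits are not read here. Quantile normalization left 0 epithelial genes, 2 mesenchymal genes and 0 factors, and median centring 0, 3 and 0, with all these mesenchymal genes higher.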

How the data were processed

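RNA of 12 libraries was analysed from a table of TPM values with 153329 Ensembl transcript rows. Per the labels' protocols, the library kit was a stranded one for mRNA. The deposited TPM columns each sum to 1000000, so they hold no read depth, and no counting error, interval on counts or floor was computed; the aligner, quantifier, build and annotation are not given in the sources used here. Columns were matched to samples by title. Transcripts were paired with genes through GENCODE v44 (hg38), which covered 91.2% of rows and 89.6% to 90.5% of the TPM of a library, and were summed to 39099 genes.

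Values were analysed as log2(TPM + 1), which understates changes of low genes. The 14767 genes that reached 1 TPM in 2 or more libraries were fitted with limma 3.58.1 (eBayes with trend) in R 4.3.3, with 6 group means and 6 residual degrees of freedom. From it 9 contrasts were read, and two-sided p-values were adjusted by the Benjamini-Hochberg method over all genes tested, with a threshold of 0.05. All libraries share the spread of a gene. The fit was tested on simulated data. Other settings were quantile normalization, median centring, 2 filters (none, or a mean of at least 5 TPM), a pseudocount of 0.1, limma without trend, fits of fewer groups, the replicate block, transcript rows and leaving out each library. The mean over the 3 treatments of a line, and the counts over the 4 other lists under each setting and over the genes that passed the filter in both lines were added after the data were seen.

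The 10 members and the other gene lists were chosen with earlier results of these data known. The members were always named. From each other list, the 3 largest differences each way between mock lines, or the 3 largest of either sign with a construct, were named if adjusted p was under 0.05 and the groups did not overlap. LMO7, SEMA3B, ZNF222, ZNF292 and TRIM23 were named from the 3 nearest profiles to CDH1 and to ZEB1, of which 1 is not reported here. Figures were drawn with matplotlib 3.10.9.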

Additional observations from a re-analysis of the deposited data

How the results depend on the processing

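The comparisons of 9 members in 9 contrasts gave 81 values, and the 1170 values under other settings held 17 that lost a call, 1 that gained one and 0 that reversed a called direction. Among values that were called in neither setting, 86 changed sign. The lost calls were those of SNAI2 with deltaNp63 in AsPC-1 (11 settings) and of ZEB1 between the mock lines (6 settings). The count of members called with deltaNp63 in AsPC-1 went from 1 to 0 under quantile normalization, limma without trend, a pseudocount of 0.1, no filter on low values, fits of only the groups compared or only the cell line, transcript rows and the replicate block, and ranged from 0 to 1 when each library was left out. For the deltaNp63 difference between the lines it ranged from 0 to 1 in the same way. With the replicate block the SNAI2 change was 0.75 (limma adjusted p 0.0588), and the block changed no other call among members. Deviations of same-numbered libraries from their group means correlated between -0.094 and 0.293 across genes. The highest value was for TAp63 and deltaNp63 in AsPC-1. With 2 libraries a group, these values cannot decide whether the numbers pair the libraries. Over all genes, the count with deltaNp63 in AsPC-1 was 1055, and 199 under quantile normalization, 419 after median centring, 180 with no filter, 1565 with a mean of at least 5 TPM, 1633 with the replicate block, 135 of 47437 transcript rows, 8 from limma on the cell line alone and 0 from limma on the compared groups alone (2020 at an unadjusted p under 0.05). With TAp63 in AsPC-1 it was 94, and 45 on transcript rows, 1 with the cell line alone and 0 with the groups alone (1971 at an unadjusted p under 0.05). The counts of 1 to 11 genes in the other construct comparisons became 46 to 103 with no filter, and that of 86 for the deltaNp63 difference between the lines became 148. The 7 other named genes called with deltaNp63 against mock in AsPC-1 lost the call in 4 to 10 settings each, and the 23 named between the mock lines kept it in all. Limits are the unknown depth and 2 libraries a group; TWIST1 and ZEB2 gave no value on transcript rows.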

Other observations

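MIR200CHG (ENSG00000257084), the host transcript of microRNAs that are known to target ZEB1 and ZEB2, was looked up after the values above were seen. It ranged from 1.92 to 4.12 TPM in the 6 AsPC-1 libraries and was listed at 0 in all 6 PANC-1 libraries (mock difference -1.65 on the log2(TPM + 1) scale, limma adjusted p 1.66e-05). MIR205HG (ENSG00000230937), the host transcript of another microRNA of epithelial cells, was at 0.852 and 0.296 TPM in AsPC-1 mock and 1.74 and 0.28 TPM in PANC-1 mock (log2 difference 0.27, limma adjusted p 0.469). Host transcripts are not mature microRNAs, which were not measured here.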
